A study of Mus musculus with 133 samples.

Results

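The genes described here are 34 genes of the hypoxia response and of glycolysis, taken as a listed set, and 32 of them were measured among 19938 named genes. A gene was read from the probeset of highest mean that names it alone, and Gpi1 and Eno1 had no such probeset in the table used. The measured genes were sorted by role into 16 genes of the HIF response, 8 inducible glycolysis genes and 8 constitutive glycolysis genes.

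The study arrayed RNA of whole mammary tumours on Affymetrix Mouse Gene 1.0 ST chips, which gave log2 levels on 133 arrays. The animals were PyMT-positive F1 females of Diversity Outbred females (generation 5, an outbred stock) and MMTV-PyMT males, so every animal carried the transgene and a different mixture of founder alleles. The MMTV promoter drives the polyoma middle T antigen in mammary epithelium, tumours grew untreated until animals neared the humane endpoint, and the labels give no ages. The labels form 1 biological group with no treated tumours and no normal tissue, so genes were compared with each other across tumours. The arrays used were 48 with a running number in the title (numbered titles) and 79 with a name in it (named titles), while 6 arrays with an unexplained suffix r were left out. Each array used came from a different animal, so p-values measure the spread between animals.

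Hypoxia-inducible factors (HIF) are transcription factors whose alpha subunit is hydroxylated and destroyed while oxygen is present. When oxygen is short the subunit lasts and switches on genes for glucose uptake, glycolysis, acid export, vessel growth and the removal of mitochondria, together with its own hydroxylases. Glycolytic enzymes of the core chain are also made in well-oxygenated cells, and tumours of mammary epithelium commonly keep them high.

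The HIF dimer binds the core letters ACGTG or GCGTG. In RefSeq promoters of build GRCm38.p6, which run from 250 bases before to 50 bases after each start, 34 of 44 promoters of the members held at least 1 of these on either strand (77.3%), against 43.8% of all 32851 promoters in the table. The share was 73.9% of 23 promoters for HIF response genes, 88.9% of 9 for inducible glycolysis genes and 75% of 12 for constitutive glycolysis genes. ACGTG is also part of the E-box CACGTG, so a match names letters and not a bound site. Promoters of the same gene, such as those of Ak4, can overlap and were counted apart. Members were not matched to all promoters in base content. The table matched 29 of the 32 members, and Bnip3l, Ndrg1 and Slc2a3 were not among them. The promoters of 5 genes on which the results turn are shown 5′ to 3′ with the matches of either strand in capitals. They lie at chr12:54203825-54204124 (minus strand, Egln3), chr4:43506776-43507075 (plus strand, Car9), chr8:45999801-46000100 (minus strand, Ankrd37), chr4:119108495-119108794 (plus strand, Slc2a1) and chrX:106186850-106187149 (plus strand, Pgk1).
Egln3: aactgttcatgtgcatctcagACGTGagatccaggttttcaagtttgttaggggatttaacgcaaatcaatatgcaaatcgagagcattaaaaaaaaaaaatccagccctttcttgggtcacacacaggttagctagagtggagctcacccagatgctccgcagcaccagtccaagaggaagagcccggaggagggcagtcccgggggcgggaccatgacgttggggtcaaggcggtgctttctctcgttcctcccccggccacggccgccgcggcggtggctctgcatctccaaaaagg
Car9: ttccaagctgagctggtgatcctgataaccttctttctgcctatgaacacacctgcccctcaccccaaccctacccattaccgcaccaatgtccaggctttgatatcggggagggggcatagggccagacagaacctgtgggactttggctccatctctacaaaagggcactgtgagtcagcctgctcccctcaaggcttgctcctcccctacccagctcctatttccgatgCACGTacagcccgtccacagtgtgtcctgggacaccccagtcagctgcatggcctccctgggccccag
Ankrd37: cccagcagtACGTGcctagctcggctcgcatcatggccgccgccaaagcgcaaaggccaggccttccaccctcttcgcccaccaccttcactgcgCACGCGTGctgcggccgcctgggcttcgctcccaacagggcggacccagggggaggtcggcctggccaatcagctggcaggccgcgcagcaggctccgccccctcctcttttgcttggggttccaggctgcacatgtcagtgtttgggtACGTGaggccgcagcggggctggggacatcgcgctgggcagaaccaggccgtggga
Slc2a1: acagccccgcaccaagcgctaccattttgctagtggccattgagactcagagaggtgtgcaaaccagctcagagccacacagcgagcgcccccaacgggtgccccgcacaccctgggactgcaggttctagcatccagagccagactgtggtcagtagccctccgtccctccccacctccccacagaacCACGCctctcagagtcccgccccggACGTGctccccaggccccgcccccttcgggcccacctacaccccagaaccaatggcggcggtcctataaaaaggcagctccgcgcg
Pgk1: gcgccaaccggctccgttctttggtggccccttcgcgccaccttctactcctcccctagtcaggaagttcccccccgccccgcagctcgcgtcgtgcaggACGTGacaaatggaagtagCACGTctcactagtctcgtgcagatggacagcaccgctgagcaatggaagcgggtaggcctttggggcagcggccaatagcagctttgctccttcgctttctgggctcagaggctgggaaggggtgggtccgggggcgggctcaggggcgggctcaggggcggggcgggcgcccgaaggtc

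Ankrd37 held 4 matches, Slc2a1 and Pgk1 held 2 each, and Egln3 and Car9 held 1 each. No window of Car12, Eno2 or Tpi1 held one.

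Before members were compared, arrays were checked against each other and against markers of the tissue. Luminal epithelial markers were high in every tumour: Krt8 ran from 10.7 to 12.6 and Epcam from 10.4 to 11.7 on the log2 scale, against a median level of 6.67 over all named genes. The array median averaged 6.18 ± 0.034 in numbered titles and 5.96 ± 0.076 in named titles (SD, n = 48 and 79), so levels were centred per series, or series entered the fit. The arrays of animals 14095, 14094, 14312 and 14320 stood apart, with mean correlations of 0.944, 0.945, 0.906 and 0.917 with the other arrays used. They are the 4 lowest by rank. The next lowest array, that of animal 14352, also had 0.945 and was kept, so no gap marks the cut. Animals 14095 and 14094 had the lowest centred values of all tumours for Car9, Aldoc, Pfkl and Ldha, and their proliferation scores were -6.26 and -4.45 (mean z of mitotic genes). Animals 14312 and 14320 had the lowest Hk1. Values without these 4 arrays stand beside the fits and pairs that they touch most.

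The spread between tumours ranged widely over the set, and the 6 genes of widest spread were HIF response genes. Car9, a membrane carbonic anhydrase, had the widest spread, with an SD of 0.885 within title series, above 98.9% of all genes. Its log2 level was 5.59 at the lowest, 7.72 at the median and 9.15 at the highest in numbered titles, and 5.63, 7.66 and 9.93 in named titles. The series overlapped almost wholly, and single tumours of either one lay several log2 units apart. Ak4, a mitochondrial adenylate kinase, followed with an SD of 0.821 and ran from 7.41 over 8.69 to 10.6 in numbered titles, and from 6.55 over 7.92 to 10.4 in named titles. Adm, the vasodilator peptide adrenomedullin, had an SD of 0.758, and its tumours lay mostly near the median with a tail of high ones: 5.93, 6.74 and 9.09 in numbered titles, and 5.40, 6.51 and 9.10 in named titles. Ndrg1, a stress response gene, Bnip3, a receptor for mitophagy, and Vegfa, the main growth factor of vessels, had SDs of 0.661, 0.630 and 0.624. The median SD over all genes was 0.217.

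Egln3, a prolyl hydroxylase that marks HIF for destruction and is itself a HIF target, ran from 9.29 over 10.7 to 11.5 in numbered titles, and from 8.89 over 10.2 to 11.3 in named titles (SD 0.530). Slc2a1, the glucose transporter GLUT1, was 9.66, 10.8 and 11.6 in numbered titles, and 9.52, 11.4 and 12.1 in named titles (SD 0.470). Its median was lower in numbered titles, the opposite order to that of Egln3 and most other members, and the ranges of the series overlapped for every gene of the set. Among constitutive enzymes Pfkp, the platelet form of phosphofructokinase, had the widest spread (SD 0.447) and Pgk1, phosphoglycerate kinase, followed (SD 0.386). Aldoa, the main aldolase, was 11.0, 11.8 and 12.6 in numbered titles, and 10.5, 11.7 and 12.5 in named titles (SD 0.341). Ldha, which makes lactate from pyruvate, varied as little as a typical gene, with 11.3, 12.2 and 12.6 in numbered titles, and 11.6, 12.4 and 12.9 in named titles (SD 0.218). The narrowest members were Mxi1, an antagonist of MYC, Bnip3l, a relative of Bnip3, and Pfkfb4, which sets the level of an activator of phosphofructokinase, with SDs of 0.150, 0.190 and 0.195.

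**Figure D1:**
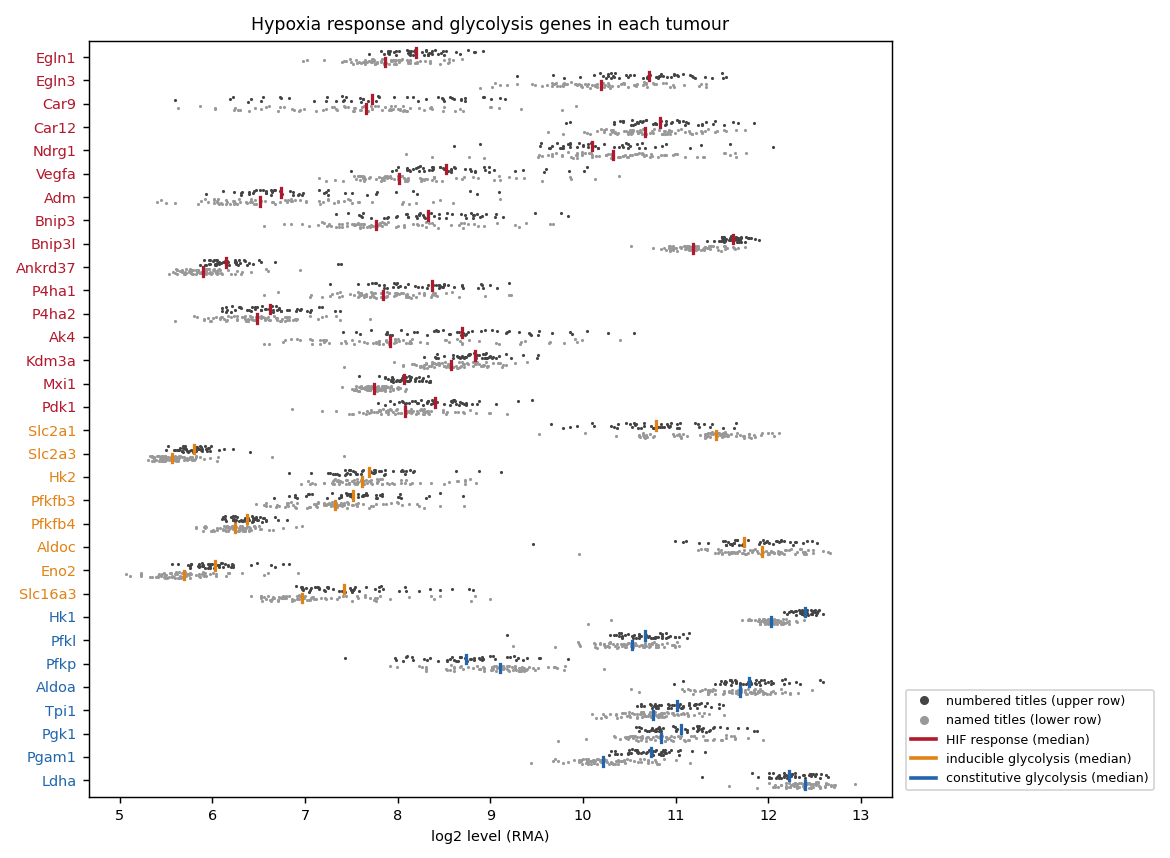
Log2 level (x axis) of each of the 32 measured genes (rows) in each tumour, with numbered titles in the upper and named titles in the lower row of a gene and a bar at each median, coloured by role. Car9, Ak4 and Adm spread widest (SD 0.885, 0.821 and 0.758), whereas Mxi1, Bnip3l and Pfkfb4 stay within a narrow band (0.150, 0.190 and 0.195).

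The probesets limit some of these values. Hk1, hexokinase of the core chain, was read by the rule from a probeset with no RefSeq transcript (mean 12.1), which did not follow the Hk1 probeset with one (mean 10.3, r = 0.048), so slopes of Hk1 on Egln3, Slc2a1 and Aldoa are also given from that probeset. Pgk1 had 3 probesets (r of 1.00 with the one used), Pgam1 had 3 (0.947), and Bnip3, Bnip3l and Ak4 had 2 each (0.920, 0.879 and 0.868). Near copies of Pgk1, Pgam1 and Aldoa exist in the genome, and a probeset can read gene and copy together.

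Across tumours the members mostly rose and fell together. Of all 496 pairs, 428 had a positive Pearson correlation of values centred within title series (48 and 79 tumours), and the median r was 0.268. The median r of a single member with all named genes lay between -0.103 and 0.073 for the HIF response genes, between -0.082 and 0.081 for the inducible and between -0.150 and 0.022 for the constitutive glycolysis genes. Within the HIF response the median r was 0.340 over 120 pairs, within constitutive glycolysis 0.320 over 28 pairs, and within inducible glycolysis 0.236 over 28 pairs. Between HIF response and constitutive glycolysis it was 0.256, and between inducible and constitutive glycolysis 0.134, with 47 of 64 above 0. Correlations are descriptions over the same arrays, which also share RNA quality and cell makeup.

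The closest pair crossed the roles: Ak4 and Pgk1 correlated with r = 0.820. Next came Ak4 with Slc16a3, the lactate exporter MCT4 (0.774), Vegfa with Adm (0.751), Slc16a3 with Pgk1 (0.740), and Egln1, the main HIF hydroxylase, with Hk2, the inducible hexokinase (0.736). Egln1 with Bnip3 (0.733), Vegfa with Slc16a3 (0.717), Vegfa with Ak4 (0.711) and Ankrd37 with Slc16a3 (0.710) were of the same size. Aldoa kept other company, with Ldha (0.609), Pfkp (0.551), Slc2a1 (0.489) and Car12 (0.485). The lowest pairs all involved a member that ran against the rest: Slc2a3, the glucose transporter GLUT3, with Aldoc, a second aldolase (-0.458), Hk2 with Aldoc (-0.427), Car9 with Slc2a3 (-0.376) and Slc2a3 with Pfkl (-0.367). Animals 14094 and 14095 hold the extremes of these genes, and without the 4 arrays the same pairs had r of -0.203, -0.278, -0.297 and -0.059. Over all pairs 443 were then above 0, with a median r of 0.284, and Ak4 with Pgk1 had 0.852.

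**Figure D2:**
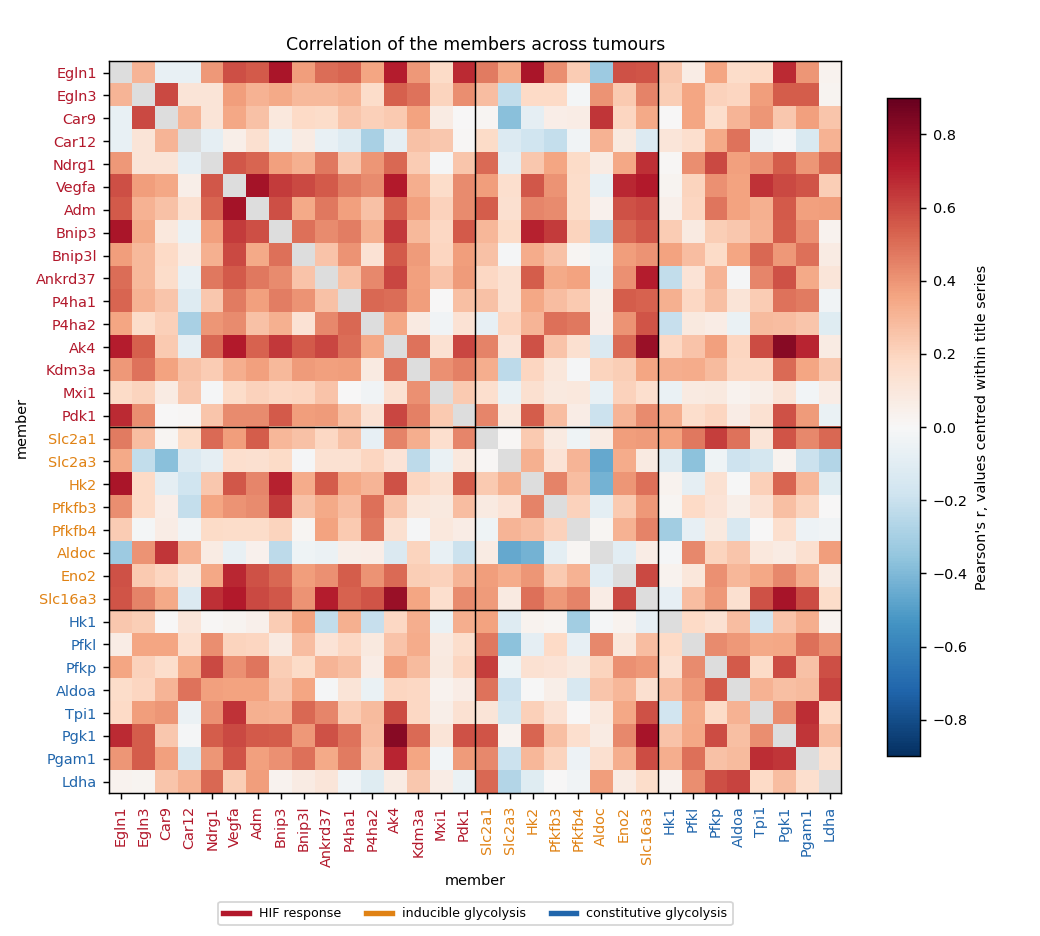
Pearson's r (colour) for every pair of the 32 measured genes over all tumours used, with values centred within title series, genes grouped by role and the diagonal in grey. A block of high values links Egln1, Vegfa, Adm, Bnip3 and Ak4 with Slc16a3 and Pgk1. The lowest values lie in the rows of Slc2a3 and Aldoc.

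Mean z scores of the roles, given as a description, correlated with r = 0.776 for HIF response and inducible glycolysis, 0.673 for HIF response and constitutive glycolysis, and 0.466 for inducible and constitutive glycolysis. Spearman's rho was 0.666, 0.606 and 0.438. For HIF response and constitutive glycolysis r was 0.662 in numbered and 0.681 in named titles, 0.629 when the 2 most distant tumours were dropped and 0.734 without the 4 arrays that stand apart. It was 0.642 with all probesets of a gene averaged, and 0.603 with Hk1 read from the probeset with a RefSeq transcript. With that Hk1 probeset r was 0.432 for inducible and constitutive glycolysis.

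A single gene of each role was then set against the other two. Slc2a1 and Aldoa correlated most, with r = 0.489 (rho 0.434, adjusted permutation p = 3e-05 for either, which is the smallest possible over 3 pairs with 100000 permutations, 48 and 79 tumours). Egln3 and Slc2a1 had r = 0.279 (rho 0.220, adjusted permutation p = 0.0022 and 0.0201), and without the 4 arrays r = 0.197 and rho 0.164 (adjusted permutation p = 0.0441 and 0.106). Egln3 and Aldoa had the lowest value, r = 0.192 (rho 0.193, adjusted permutation p = 0.0318 and 0.0303), and r = 0.135 without the 4 arrays (adjusted permutation p = 0.139). In numbered titles r was 0.473 for Slc2a1 and Aldoa, 0.163 for Egln3 and Slc2a1 and 0.130 for Egln3 and Aldoa, and in named titles it was 0.497, 0.339 and 0.222. When the 2 most distant tumours in the gene named first were dropped, r was 0.442, 0.250 and 0.189.

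**Figure D3:**
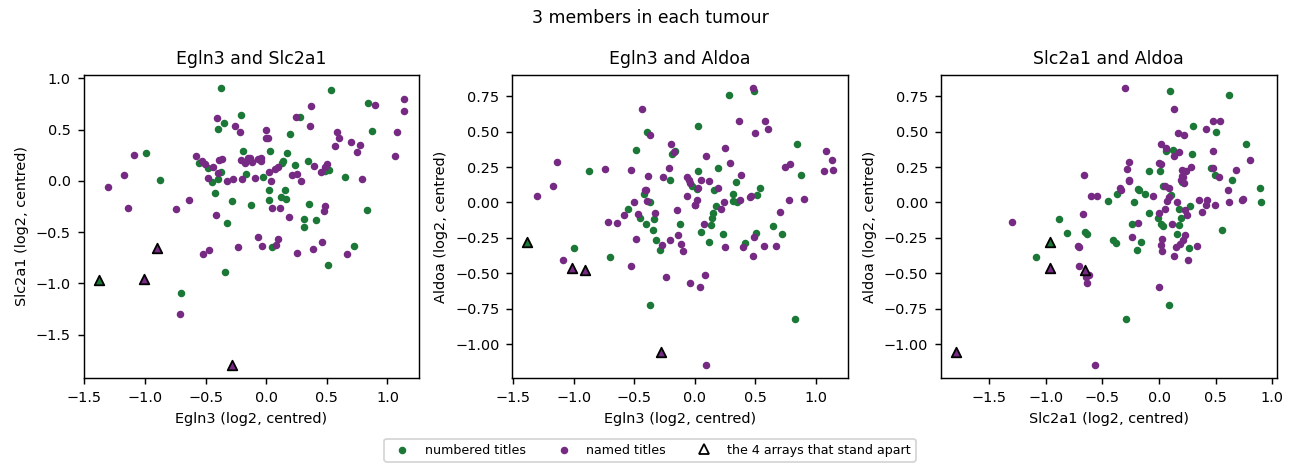
Log2 levels of Egln3, Slc2a1 and Aldoa against each other in every tumour used, each centred within its title series, with numbered titles in green, named titles in purple and the 4 arrays that stand apart as triangles. Slc2a1 and Aldoa (r = 0.489) line up more tightly than Egln3 with Slc2a1 (0.279) or with Aldoa (0.192), and the 4 triangles all lie below 0 for Slc2a1.

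Levels of all genes were then fitted on the level of 1 member, with title series as a term, and slopes are given in log2 units per SD of that member. With Egln3, 11 of 15 HIF response genes, 4 of 8 inducible and 5 of 8 constitutive glycolysis genes rose, and 1 inducible gene, Slc2a3, fell. Over all 19937 genes 12.5% rose and 12.1% fell (limma, adjusted p under 0.05). The steepest was Car9, by 0.52 ± 0.063 (SE, adjusted p = 8.51e-10), followed by Ak4 with 0.44 ± 0.061 (adjusted p = 2.74e-08). Of the constitutive enzymes Pgk1 rose by 0.21 ± 0.029 and Pgam1, phosphoglycerate mutase, by 0.16 ± 0.022 (adjusted p = 1.82e-08 and 1.87e-08), and Tpi1, triose phosphate isomerase, Pfkl, the liver form of phosphofructokinase, and Hk1 rose as well. Aldoa had a slope of 0.065 ± 0.030 and Ldha of 0.0061 ± 0.019, neither past the threshold (adjusted p = 0.0912 and 0.831). Kdm3a, a histone demethylase, Pdk1, which holds pyruvate back from the mitochondria, and Vegfa rose by 0.15, 0.16 and 0.23. Ndrg1, Car12, P4ha2 and Mxi1 did not pass the threshold.

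Without the 4 arrays, 12 HIF response, 4 inducible and 3 constitutive genes rose with Egln3, while 7.69% of all genes did. The constitutive genes that rose were then Pgk1 (0.19), Pgam1 (0.14) and Tpi1 (0.12). Slopes of Pfkl (0.056), Hk1 (0.016), Slc2a1 (0.084) and Slc2a3 (-0.018) no longer passed.

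With Slc2a1, 11 of 16 HIF response, 3 of 7 inducible and 7 of 8 constitutive glycolysis genes rose, and no member fell, against 11.6% of all genes rising and 27.2% falling. The steepest slopes were those of Adm (0.41 ± 0.056, adjusted p = 7.42e-09), Ak4 (0.36 ± 0.065, adjusted p = 7.56e-06) and Ndrg1 (0.34 ± 0.050, adjusted p = 1.01e-07). Pfkp rose by 0.28 ± 0.031 (adjusted p = 4.05e-12), Pgk1 by 0.22, Aldoa by 0.17, Pfkl by 0.15, Pgam1 by 0.12 and Ldha by 0.11. Tpi1 was the constitutive gene that did not pass (0.032 ± 0.024, adjusted p = 0.298). Car9 had a slope of 0.017 ± 0.078 (adjusted p = 0.878), while Egln3 rose by 0.15 ± 0.045. With the 4 arrays left out Egln3 (0.10), Bnip3l (0.036), P4ha1 (0.080), a collagen prolyl hydroxylase, and Hk1 (0.0051) did not pass, Ankrd37 (0.097), Mxi1 (0.039) and Slc2a3 (0.049) did, and 6.64% of all genes rose.

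With Aldoa, 7 of 16 HIF response, 3 of 8 inducible and 7 of 7 constitutive glycolysis genes rose, and no member fell, against 10.6% of all genes rising and 27.2% falling. Ldha rose by 0.13 ± 0.016 (adjusted p = 1.39e-10) and Pfkp by 0.25 ± 0.033 (adjusted p = 2.06e-08), then Pfkl by 0.12, Pgk1 by 0.11, Tpi1 by 0.086, Pgam1 by 0.082 and Hk1 by 0.071. The HIF response genes that rose were Adm (0.28), Car9 (0.27), Ndrg1 (0.24), Vegfa (0.23), Car12 (0.21), Bnip3 (0.15) and Bnip3l (0.067), and Slc2a1 rose by 0.23 ± 0.036 (adjusted p = 1.80e-06). Ak4 (0.16), Egln3 (0.10), Egln1 (0.052), Pdk1 (0.026) and Ankrd37 (-0.0030) did not pass. Car12, a carbonic anhydrase like Car9, thus rose with Aldoa (0.21 ± 0.033, adjusted p = 2.20e-06) but had slopes of 0.049 on Egln3 and 0.075 on Slc2a1 that did not pass. When the 4 arrays were left out 5 constitutive genes rose, with Pgam1 (0.054) and Hk1 (0.0047) lost, Bnip3 (0.15) did not pass, and 7.97% of all genes rose.

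**Figure D4:**
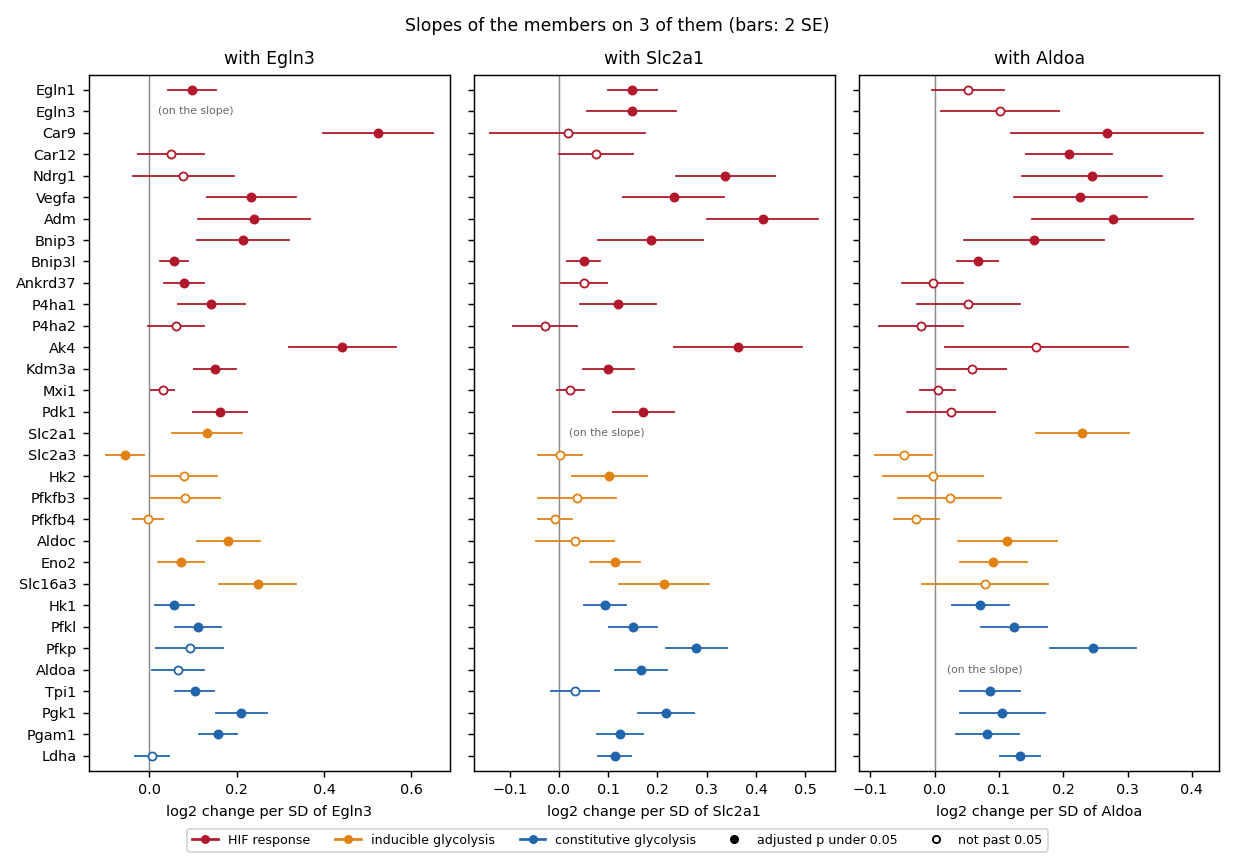
Slope of each member (rows, coloured by role) in log2 units per SD of Egln3, Slc2a1 or Aldoa (panels from left to right) over all tumours used, with bars of 2 SE and filled points where the adjusted p was under 0.05. Car9 is steepest with Egln3 (0.52) and near 0 with Slc2a1 (0.017), and Ldha is near 0 with Egln3 (0.0061) and rises with Slc2a1 (0.11) and Aldoa (0.13).

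Where Hk1 was read from the probeset with a RefSeq transcript, its slope was 0.034 on Egln3, 0.075 on Slc2a1 and 0.072 on Aldoa, and it passed with Slc2a1 and Aldoa (adjusted p = 0.00100 and 0.00206) but not with Egln3. From that probeset and with the 4 arrays left out its slopes were -0.0028, 0.054 and 0.058, with the same calls. The constitutive genes rising with Egln3 were then 4. The slope of a member was also tested for a difference between title series. No member passed the adjusted threshold for Egln3 (8 of 31 at an unadjusted p under 0.05, limma) or for Aldoa (3 of 31). Hk1 passed for Slc2a1, while 0%, 0.662% and 9.62% of all genes passed for Egln3, Aldoa and Slc2a1. Of the 8, Adm, Ak4, Bnip3, Egln1, Hk2, P4ha1 and Vegfa had lower slopes on Egln3 in numbered titles. Numbered minus named ran from -0.115 (Egln1) to -0.288 (Bnip3), and Aldoc had 0.207. These 8 had adjusted p from 0.380 (Aldoc) to 0.483 (Vegfa) in limma. The share of all genes at that unadjusted p was not counted, so no difference between series was shown for them.

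With numbered titles alone, which hold 48 tumours, 2 HIF response, 1 inducible and 2 constitutive genes rose with Egln3, 5, 0 and 5 with Slc2a1, and 1, 0 and 2 with Aldoa. The shares of all genes rising also dropped there, to 6.91%, 2.27% and 0.316%. The genes that rose there with Egln3 were Car9 (0.53), Ankrd37 (0.13), Aldoc (0.30), Pgam1 (0.12) and Tpi1 (0.10). With named titles alone Car9 rose by 0.52 and Ak4 by 0.56 with Egln3, and the counts stayed within 1 of those over all tumours.

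Each other member was set on the slope in the same way, and the number of members that rose ran from 1 to 26 of 31. Pgk1 led over all tumours used. With it 14 of 16 HIF response, 5 of 8 inducible and 7 of 7 constitutive genes rose, against 8.18% of all genes. With Pgam1 they were 14, 4 and 6 (15.5% of all genes), and with Slc16a3 14 of 16, 5 of 7 and 5 of 8 (4.91%). Vegfa had 13 of 15, 5 and 5 (2.93% of all genes) and Ak4 12 of 15, 5 and 5 (5.28%). With Adm 11 of 15, 5 and 6 rose, while 0.913% of all genes did. With Hk2, 11 of 16 HIF response and 6 of 7 inducible but 2 of 8 constitutive genes rose (6.89%). With Ldha, 4 of 16, 2 of 8 and 4 of 7 rose (6.82%). When the 4 arrays were left out, 13, 5 and 4 rose with Hk2 (5.47%), 4, 2 and 3 with Ldha (4.32%), and 14, 4 and 3 with Pgam1 (12.6%). Eno2, an inducible member, then led, with 14 of 16 HIF response, 5 of 7 inducible and 7 of 8 constitutive genes (3.1%). With Pgk1 they were 14, 5 and 6 (7.8%) and with Vegfa 13, 5 and 7 (3.83%). The 7 constitutive genes rising with Pgk1 over all tumours included Hk1, read from the probeset with no RefSeq transcript.

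Car9, often used to mark hypoxic tissue, was joined by 7 of 15 HIF response, 2 inducible and 6 constitutive genes, against 14% of all genes rising, and 1 inducible gene, Slc2a3, fell with it, against 10.8% of all genes falling. Its correlation was 0.644 with Aldoc, whereas the r of Aldoc with Egln1 was -0.329. Leaving out the 4 arrays, these were 0.612 and -0.226, and 9 HIF response, 3 inducible and 5 constitutive genes rose with Car9 (11.3% of all genes). In the tumours of animals 14095 and 14094 Car9 lay at -2.16 and -1.97 log2 units from the mean of its series and Aldoc at -2.32 and -1.93.

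A few members were joined by few of the others. With Mxi1 1 of 31 rose, Kdm3a, against 1.4% of all genes. With Car12, 2 of 15 HIF response, 1 inducible and 3 constitutive genes rose (5.07%), and 1 HIF response gene fell. When the 4 arrays were left out 7 of 31 members rose and 1 fell with Car12 (6.58% and 3.93% of all genes). The members that rose with Car12 thus lay above the share of all genes. With Aldoc 3 HIF response and 3 constitutive genes rose and 2 HIF response and 2 inducible genes fell, against 16.9% and 11.2% of all genes. With Slc2a3 1 HIF response and 3 inducible genes rose and 3 HIF response, 1 inducible and 2 constitutive genes fell, against 19.9% and 18.4% of all genes, so the 4 of 31 that rose and the 6 of 31 that fell lay below and near the shares of all genes. Leaving out the 4 arrays, 4 members rose and 1 fell with Aldoc (11.4% and 8.28% of all genes), and 5 rose and 1, Car9, fell with Slc2a3 (16.8% and 11.6%). The level of Slc2a3 ran from 5.49 over 5.80 to 6.40 in numbered titles, and from 5.30 over 5.57 to 7.42 in named titles, and its highest tumour, that of animal 14094, had the highest B cell score (mean z of 7.01).

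The members were then set against marker scores of cell types, each a mean z of listed markers that holds no member. In whole tumours, fewer cells of a type and less RNA per cell cannot be told apart. The keratinocyte score (7 genes such as Krt1, Krt10 and Lor) took 16 of 32 members up: 10 of 16 HIF response, 5 of 8 inducible and 1 of 8 constitutive genes, against 3.48% of all genes rising. Ak4 rose by 0.36 ± 0.065 (adjusted p = 8.70e-06), Slc16a3 by 0.31 ± 0.041 (adjusted p = 3.85e-10), Bnip3 by 0.26, Ndrg1 by 0.26, Vegfa by 0.24 and Hk2 by 0.21, and the constitutive gene was Pgk1 (0.15). Egln3 and Car9 did not pass. The count was 16 without the 4 arrays (3.74% of all genes rising), 14 with normal scores of ranks (13.6%) and 3 in numbered titles alone (Slc16a3, Ankrd37 and Pdk1, 1.54%).

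The fibroblast score took 13 members down: 9 of 16 HIF response, 1 inducible (Slc16a3) and 3 constitutive genes (Tpi1, Pgk1 and Pgam1), against 2.77% of all genes falling. Egln3 fell by 0.27 (SE 0.040, adjusted p = 3.30e-08), Ak4 by 0.33, Car9 by 0.30, Vegfa by 0.27 and Adm by 0.23. With Egln3 on the slope, 10 of 10 fibroblast markers fell, 10 of 10 endothelial markers and 8 of 10 macrophage markers, while with Slc2a1 no fibroblast or endothelial marker passed and 1 macrophage marker rose. Without the 4 arrays 10, 8 and 9 of these lists fell with Egln3, and 2 fibroblast markers fell with Slc2a1. With Aldoa 3 fibroblast, 1 endothelial and 3 macrophage markers of 10 each fell, and without the 4 arrays 3, 0 and 4. Over all genes 12.1% fell with Egln3, 27.2% with Slc2a1 and 27.2% with Aldoa. Without the 4 arrays these shares were 7.36%, 6.89% and 7.81%. The counts with Aldoa over all tumours used thus lay near or below the share of all genes. The endothelium score took 5 HIF response, 1 inducible and 3 constitutive genes down (7.71% of all genes) and 1 member, Slc2a3, up (9.31%). The macrophage score took 6 HIF response and 2 constitutive genes down (7.21%), and without the 4 arrays 13 members fell (7.33%). Egln3, Car9, Ak4, Ankrd37, Kdm3a, Pgk1 and Tpi1 fell with all 3 scores.

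With the luminal epithelium score 5 of 8 constitutive, 1 of 16 HIF response and 2 of 8 inducible genes rose, against 15.4% of all genes. The constitutive genes are all bright, and among genes at or above the median level 29.1% rose with this score (24.2% with Egln3, 19.6% with Slc2a1, 18.1% with Aldoa and 34.5% with proliferation). Aldoa rose by 0.16 ± 0.027 (adjusted p = 3.24e-06), Pfkl by 0.17 ± 0.024 (adjusted p = 1.85e-08), Pfkp by 0.16, Ldha by 0.094 and Pgam1 by 0.070, and among the others Ndrg1 rose by 0.31, Slc2a1 by 0.16 and Aldoc by 0.10. Slc2a3 fell, as did 22.4% of all genes. Without the 4 arrays Aldoa (0.13), Pfkl (0.085), Ldha (0.051), Tpi1 (0.068) and Ndrg1 (0.26) rose (10.1% of all genes did), P4ha1 fell, and Pfkp (0.099), Pgam1 (0.024), Slc2a1 (0.090) and Slc2a3 (-0.023) did not pass. The milk secretion score took Slc2a1 (0.23), Ndrg1 (0.33), Ldha (0.10), Pfkp (0.15) and Pfkl (0.078) up (6.15% of all genes) and Car9 down, by 0.29 (8.14%). With Slc2a1 on the slope 6 of 6 milk genes rose (11.6% of all genes), and with Egln3 3 of 6 fell (12.1%). Csn2, beta casein, had slopes of 0.92 ± 0.18 on Slc2a1 and -0.61 ± 0.19 on Egln3.

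The proliferation score took 4 HIF response, 1 inducible and 5 constitutive genes up (18.2% of all genes) and Slc2a3, Hk2 and Eno2, a neuronal enolase, down (14%). Much of this rested on the 4 arrays that stand apart: with them left out 6 members rose, among them Egln3 (0.14), Ak4 (0.31), Tpi1 (0.12), Pgam1 (0.11) and Pgk1 (0.093), and 2 fell, against 14.1% and 12.2% of all genes, so these counts lay near or below the background, while Ldha (-0.014), Pfkl (-0.012) and Aldoc (-0.050) had slopes of the other sign, not past the threshold. With Egln3 on the slope 12 of 12 proliferation genes rose (12.5% of all genes), and 6 did without the 4 arrays (7.69%).

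The T and NK cell score took 6 HIF response, 3 inducible and 7 constitutive genes down, against 17.7% of all genes, and Slc2a3 up, by 0.18 ± 0.016 (adjusted p = 2.26e-17), against 35.2%. Without the 4 arrays 11 members fell, with 7.86% of all genes falling, and Slc2a3 rose by 0.11. The neutrophil score took 5 inducible genes (Slc2a3, Slc16a3, Hk2, Pfkfb3 and Pfkfb4) and 4 HIF response genes up and 3 HIF response, 1 inducible and 3 constitutive genes down, but 38.4% of all genes rose and 17.6% fell. With quantile normalization 11 members rose, 7.37% of all genes did, and 1 member fell, and in numbered titles alone no member passed, nor did any gene rise (0% of all genes). The neutrophil markers were dim: S100a8 averaged 6.08 and Ngp 4.12, against the median of 6.67 over all genes. With the B cell score 3 HIF response, 1 inducible and 3 constitutive genes fell (12.1%) and Slc2a3 rose (13.6%), and without the 4 arrays Car9 fell and Slc2a3 rose. Among genes at or above the median level 31.3% fell with the T and NK cell, 30.1% with the neutrophil and 23.6% with the B cell score. The members that fell with the neutrophil and B cell scores thus lay near or below these shares.

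With the adipocyte score Car9 fell by 0.41 (SE 0.069, adjusted p = 1.31e-06), Egln3 by 0.20, and in all 3 HIF response, 2 inducible and 3 constitutive genes fell (6.88%), while Bnip3, Pfkfb3 and Slc2a3 rose (7.69%). The myoepithelium score took Bnip3 (0.20), Egln1, P4ha1, P4ha2, Hk2 and Pfkfb3 up (6.21%) and Car12 and Ldha down (5.82%). The 3 of 32 members rising with the adipocyte score and the 2 of 32 falling with the myoepithelium score lay near the shares of all genes. Member counts without the arrays that stand apart are not given for the adipocyte and myoepithelium scores. No member passed with the skeletal muscle score, with which 2.42% of all genes rose and 1.21% fell.

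**Figure D5:**
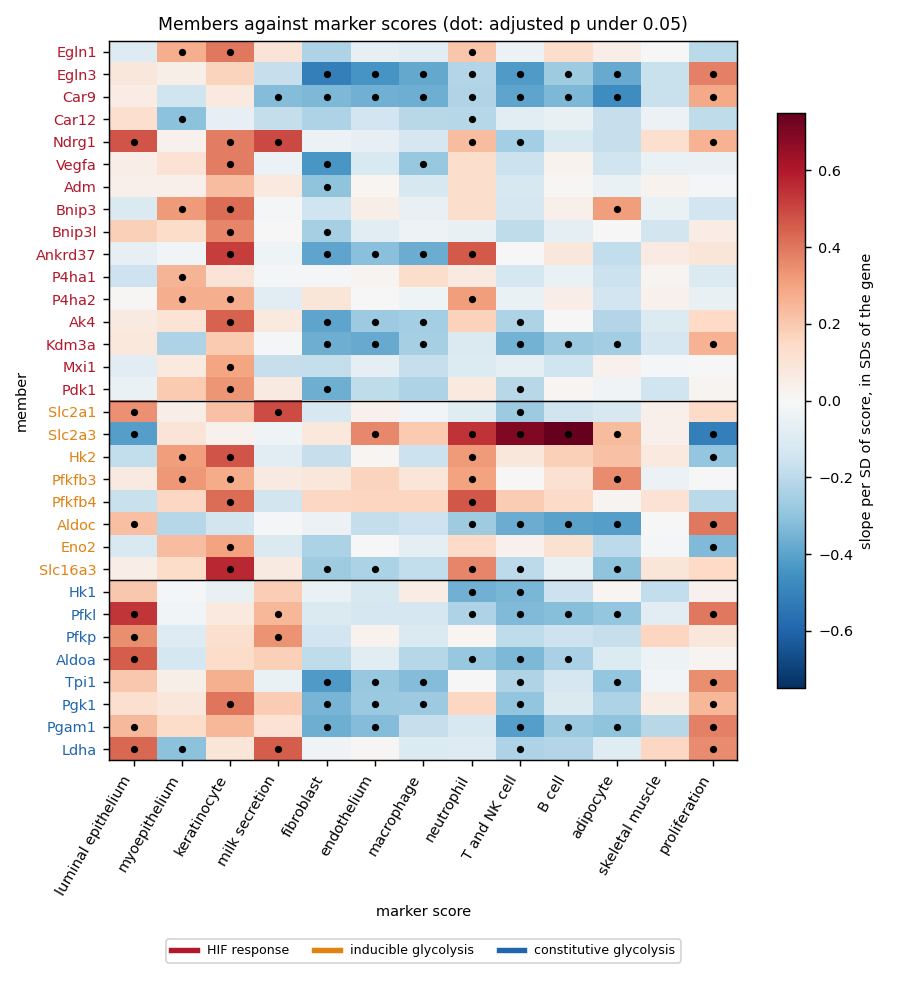
Slope of each member (rows) on each marker score (columns) over all tumours used, per SD of the score and in SDs of the gene, red where the member rose, blue where it fell and with a dot where the adjusted p was under 0.05. The keratinocyte column is red over HIF response and inducible genes (16 dots), the fibroblast column is blue (13 dots), and Slc2a3 is dark red under T and NK cells and B cells.

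When the luminal epithelium, fibroblast, endothelium, macrophage and proliferation scores entered the fits as further terms, 10 HIF response, 6 inducible and 4 constitutive genes rose with Egln3, 10, 3 and 7 with Slc2a1, and 7, 3 and 4 with Aldoa, against 7.64%, 10.0% and 6.40% of all genes. Car9 rose by 0.47 and Pgk1 by 0.18 with Egln3, Ldha by 0.13 with Aldoa, and Pfkp by 0.23 with Slc2a1 in these fits. The part of other cell types in the slopes was not tested.

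The other genes of the pathway were counted from lists. Of 25 further HIF targets, 11 rose and 3 fell with Egln3, 16 rose and 1 fell with Slc2a1, and 8 rose with Aldoa. Ero1a, an oxidase of disulphide bonds in the endoplasmic reticulum, rose with each of Egln3 (0.18 ± 0.032, adjusted p = 1.52e-05), Slc2a1 (0.24 ± 0.029, adjusted p = 7.51e-11) and Aldoa (0.094). Gys1, glycogen synthase, rose by 0.080, 0.16 and 0.14. Lox, which crosslinks collagen, and Angptl4, a lipase inhibitor, are HIF targets that fell with Egln3, by 0.25 and 0.22, and Plod2, a collagen lysyl hydroxylase, rose by 0.33. Of 10 genes of the HIF machinery 3 rose with Egln3, 1 with Slc2a1 and 3 with Aldoa. Hif1a itself had slopes of 0.034, 0.036 and -0.0090, none past the threshold, and Epas1, the other alpha subunit, rose with Aldoa (0.15 ± 0.031, adjusted p = 0.000287). Of 28 further glycolysis and pyruvate genes 6, 8 and 7 rose and 3, 4 and 4 fell with Egln3, Slc2a1 and Aldoa. Pkm, the pyruvate kinase of tumours, rose with all 3, by 0.10, 0.12 and 0.10. Of 14 genes of amino acid and ER stress 5, 9 and 7 rose, and of 9 housekeeping genes 4, 5 and 2. Over all genes 12.5%, 11.6% and 10.6% rose and 12.1%, 27.2% and 27.2% fell with Egln3, Slc2a1 and Aldoa. Among genes at or above the median level 24.2%, 19.6% and 18.1% rose. The housekeeping counts with Egln3 and Slc2a1 thus also lay above these shares. Without the 4 arrays, 11, 13 and 6 further HIF targets rose with Egln3, Slc2a1 and Aldoa, and 2, 2 and 3 HIF machinery genes. Of further glycolysis and pyruvate genes 5, 3 and 5 then rose, and of amino acid and ER stress genes 4, 7 and 7. Of housekeeping genes 2, 1 and 1 did, against 7.69%, 6.64% and 7.97% of all genes. Over all tumours used, counts of further HIF targets and of further glycolysis and pyruvate genes that fell lay near or below the shares of all genes. The 1 of 10 HIF machinery genes rising with Slc2a1 also lay near the share of all genes (11.6%). The 6 of 28 further glycolysis and pyruvate genes rising with Egln3 lay near the share at or above the median level (24.2%).

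Outside the members, the genes of highest t with Egln3 were Seh1l (0.12), Prelid2 (0.24), Pdxp (0.20) and Rlf (0.13), and those of lowest t were Ccl11 (-0.40), C2 (-0.33), Pi16 (-0.36) and Lum (-0.53), which is also 1 of the fibroblast markers counted above. With Slc2a1 they were Cdcp1 (0.22), Tlcd3a (0.22) and Ehd4 (0.22), and Arhgap44 (-0.26), Rab27a (-0.55) and Dpyd (-0.54). With Aldoa they were Aldoart1 (0.22), a near copy of Aldoa whose probes may also read Aldoa, Parva (0.22) and Niban2 (0.19), and Srgap2 (-0.11), P2ry13 (-0.21) and Slc25a40 (-0.13). The genes whose levels were most like those of the 16 HIF response members, by the mean of their r with them, were Ero1a (0.418), Rlf (0.417), Fam162a (0.409) and Pgm1, phosphoglucomutase (0.367). Among the members outside the HIF response, Slc16a3 (0.480) and Pgk1 (0.464) had means of that size, against 0.468 for Ak4 within it.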

How the data were processed

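RNA of mammary tumours was measured on Affymetrix Mouse Gene 1.0 ST arrays. The deposited values are log2 levels that the authors made with RMA, of which neither the version nor the build is stated in the labels. The table held 35556 probesets, of which 21789 had 1 gene symbol in the platform table, 1621 had several and 12146 had none here. Arrays carry no counts of reads, so precision depends on how many there are. A gene was read from its single-gene probeset of highest mean. Levels of all genes were fitted with limma 3.58.1 (R 4.3.3, moderated by eBayes with a trend) on title series and on the level of 1 member or a marker score. Tests were 2-sided, p-values were adjusted by Benjamini-Hochberg across all genes, and 0.05 was the threshold. Permutation tests of 3 pairs drew 100000 permutations within title series. The fit was tested on simulated data. Promoters came from RefSeq (GRCm38.p6). The text names members, genes of the lists, the genes of highest and lowest t with 1 sign in either series, and those of highest mean r. The members and lists were chosen with earlier results of these data known. Alternatives left out the 4 arrays that stand apart, kept the suffix r arrays, used quantile normalization, took each title series alone, left out dim genes, averaged probesets, used ranks, or added marker scores as terms. Reading RefSeq probesets first, and refitting every member and pair without the 4 arrays, was chosen after seeing the data.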

Additional observations from a re-analysis of the deposited data

Results flagged for a closer look

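The slope of Hk1 on Slc2a1 differed between the title series: numbered minus named was -0.125 (SE 0.043, adjusted p = 0.04995 in limma, just under the threshold, 9.62% of all genes past it). The slope was 0.013 in numbered and 0.14 in named titles. Animals 14312 and 14320, both of named titles, had Hk1 at 1.69 and 1.94 log2 units below the mean of the series, and without the 4 arrays that stand apart the slope was 0.0051 over all tumours. From the probeset with a RefSeq transcript, chosen after seeing the data, the difference was 0.016 (SE 0.040, adjusted p = 0.858), and the slope without the 4 arrays was 0.054.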

How the results depend on the processing

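Members called over all tumours, on Egln3, Slc2a1 and Aldoa or on marker scores, were followed through the other settings. Of these values 1223 kept their direction and side of the threshold, 256 lost significance and 8 reversed, all 8 on marker scores. Members called only in another setting are not among these values. With numbered titles alone 2 HIF response, 1 inducible and 2 constitutive genes rose with Egln3, 5 HIF response and 0 inducible genes with Slc2a1, and 1, 0 and 2 with Aldoa. There 2 members rose and 0 fell with the luminal score, 6 fell with the fibroblast, 4 with the endothelium, 4 with the macrophage and 3 with the T and NK cell score, 0 rose and 0 fell with the neutrophil score, 6 rose with proliferation and 3 with the keratinocyte score. There r was 0.163 for Egln3 and Slc2a1 and 0.130 for Egln3 and Aldoa. With named titles alone 8 fell with the fibroblast, 4 with the endothelium and 2 with the macrophage score, and 6 rose with proliferation. Without the 4 arrays 3 constitutive genes rose with Egln3, 5 members rose with the luminal, 1 with the fibroblast, 1 with the macrophage and 6 with the proliferation score, 13 fell with the macrophage and 2 with the neutrophil score, and r was 0.135 for Egln3 and Aldoa. With quantile normalization 4 constitutive genes rose with Aldoa, 2 members fell with the luminal, 1 with the neutrophil, 5 with the proliferation and 9 with the T and NK cell score, 1 rose with the macrophage score, and r was 0.127 for Egln3 and Aldoa. With marker scores as terms 4 constitutive genes rose with Aldoa. With suffix r arrays kept 2 fell with the luminal and 4 with the neutrophil score. With dim genes left out 0 fell with the luminal score, 0 rose with the endothelium, 4 with the neutrophil and 0 with the T and NK cell score. With normal scores of ranks 0 fell with the luminal and 1 with the keratinocyte score, and 1 rose with the macrophage and 6 with the proliferation score. Reversed slopes were those of Aldoc on luminal epithelium (-0.034), and of Aldoc (-0.050), Ldha (-0.014) and Pfkl (-0.012) on proliferation without the 4 arrays, Aldoc on proliferation by ranks (-0.011), Car9 (0.085) and Egln3 (0.018) on the neutrophil score in numbered titles, and Hk1 on it with quantile normalization (0.0097). Fewer samples or genes were fitted in the settings that leave some out, and the cause of the other changes was not tested. No paired analysis was possible because all tumours form 1 group. The neutrophil markers averaged below the median gene, which limits that score.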
